A study of Mus musculus with 14 samples.

Results

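Duodenal tumors of Lrig1-null mice were compared with the duodenum of wildtype mice on 9 of the 14 arrays of the series, 6 titled as Lrig1-null tumors and 3 titled as wildtype controls. The tumor mice carried a CreERT2 cassette in both copies of Lrig1, a genotype written as Lrig1-CreERT2/CreERT2 (Lrig1-/-), and their tissue is labelled as duodenal tumor. The control mice are labelled wildtype, and their tissue is labelled as normal epithelium of the duodenum. Both groups were of 129S7/SvEv and C57/BL6 background and age-matched, all tissue came from the proximal duodenum, and no age and no agent is given. The 6 tumors and the 3 wildtype samples each came from a different mouse, so the compared arrays are single animals. The p-values rest on the spread between arrays of the same group. That spread was a single estimate per gene, shared by all groups. For genes that vary mostly among the 3 wildtype mice, such as several stomach genes below, it is lower than the wildtype spread. Their SE and p-values can therefore be too small. Genotype and tumor growth differed together between these groups and cannot be told apart here. The other 5 arrays held normal-appearing tissue beside tumors. They came from 5 of the tumor mice and entered the fit only through the shared estimate of spread. That estimate is thus not drawn from independent mice alone, and fewer genes rose with the 9 arrays alone, as given at the end.

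Lrig1 is a transmembrane protein that restrains receptors of the ErbB family and marks stem cells in the crypts of the gut. ErbB receptors are bound by ligands such as epidermal growth factor, betacellulin and epiregulin, and pass their signal through Ras to the kinase ERK, which induces its own inhibitors of the Dusp, Spry and Spred families. The lining of the duodenum is mostly absorptive enterocytes, which carry digestive enzymes and nutrient carriers on a brush border. Beneath it lie Brunner glands, which make mucus much like that of the neck and pyloric glands of the neighbouring stomach, while pit cells of the stomach surface make gastrokines and the mucin Muc5ac.

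All levels are log2 signal of Affymetrix Mouse Gene ST arrays, where 1 unit is a 2-fold difference, and differences are tumor minus wildtype. Tumor levels are given as the lowest, the median and the highest of 6 arrays, and wildtype levels singly for replicates 1, 2 and 3. A gene was said to rise or fall where limma's moderated test, two-sided and adjusted by Benjamini-Hochberg over 19938 genes, gave an adjusted p below 0.05. With so few arrays the precision is limited by their number, and levels are not compared between genes. In the gene lists, a count of 0 in one direction beside risen or fallen genes in the other was also 0 at an unadjusted p below 0.05, except for 1 lower gene each of the inflammatory cytokine and goblet lists and 3 of the acute phase list. In whole tissue, fewer cells of a type and less RNA per cell cannot be told apart.

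The targeted gene Lrig1 (transcript cluster 10546510, chromosome 6) read 7.65, 8.05 and 8.54 in tumors, against 9.54, 9.34 and 8.22 in wildtype duodenum. Wildtype replicate 3 lay inside the tumor range, so the groups overlapped. The difference was -0.96 ± 0.24 (SE, adjusted p = 0.0162). It was -0.71 with an adjusted p of 0.0559 without wildtype replicate 1, and -0.81 with an adjusted p of 0.113 without replicate 2. Where the probes of this cluster lie relative to the insertion is not given in the sources used here, so the level of Lrig1 is a weak check of the labels.

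The median SD of a gene was 0.187 over the tumors and 0.212 over the 3 wildtype arrays. Along the first principal component of the 9 arrays, which held 51.8% of the variance, the tumors lay at 8.99 to 33.0, and wildtype replicates 1, 2 and 3 lay at -3.58, -67.6 and -64.9. Replicate 1 carried genes of the stomach surface: the mean of 14 pit cell genes was 11.6 to 13.3 in tumors and 12.6 in replicate 1, against 7.11 and 7.90 in replicates 2 and 3. The acid pump genes Atp4a and Atp4b of parietal cells read 6.99, 6.95 and 7.04 and 6.99, 7.32 and 7.28 in replicates 1, 2 and 3, so replicate 1 did not stand out in them. Over 12 genes of chief and parietal cells the list mean was 7.41, 6.76 and 7.11 in replicates 1, 2 and 3. Replicate 1 was the highest wildtype array in 5 of the 12, among them the stomach hormone gene Gast, and replicate 3 in 6. Replicates 1 and 3 also carried genes of pancreatic acinar cells, with a mean over 13 genes of 7.51 to 9.68 in tumors and 13.6, 7.31 and 13.1 in replicates 1, 2 and 3. The hormone gene of pancreatic beta cells, Ins2, read 8.87 in replicate 3, against 6.62 and 6.28 in replicates 1 and 2. Of 6 islet genes 0 passed between the groups, and 0 had an unadjusted p below 0.05.

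Replicate 2 stood apart in genes that mark the proximal duodenum. S100g, a calcium-binding protein of duodenal enterocytes, read 12.73, 13.04 and 13.36 in tumors, against 13.51, 7.86 and 13.44 in wildtype replicates 1, 2 and 3. Pdx1, a transcription factor of the pancreas and proximal duodenum, read 10.54, 10.73 and 11.22 in tumors, against 11.07, 7.24 and 10.97 in the wildtype replicates. In both genes replicate 2 lay far below every other array. The ferric reductase Cybrd1 and the iron exporter Slc40a1 were likewise lowest in replicate 2, at 7.70 and 7.96, against 13.41 and 12.30 in replicate 1. The cobalamin receptor Cubn and the sphingomyelinase Enpp7 were highest in replicate 2, at 12.14 and 13.04, against 6.85 and 7.98 in replicate 3. The mouse IDs begin with F for tumors 1 to 3 and wildtype replicate 1, and with B for tumors 4 to 6 and wildtype replicates 2 and 3, and the labels do not say what the letter means. The part of the gastric, pancreatic and regional genes and of the letter in the results that follow was not tested. Genes described in full are therefore given with the 3 wildtype arrays singly, and the lists with their counts without each of these arrays.

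Across all 19938 genes, 2817 (14.1%) differed between tumors and wildtype duodenum, of which 1924 (9.65%) rose and 893 (4.48%) fell. The shares that rose and fell are the background for every list count below. A change of at least 2-fold was seen for 439 raised genes (2.2%) and 339 lowered genes (1.7%). All 6 tumors lay above all 3 wildtype arrays in 1701 genes (8.53%) and below them in 1004 genes (5.04%), so 2705 genes (13.6%) did not overlap. Raised genes were 68.3% of those that changed, but 56.4% after quantile normalization, with 1680 raised and 1301 lowered genes, and 57.4% after centring each array on its median, with 1474 raised and 1095 lowered genes. With the 2-fold threshold, 390 genes were raised and 405 lowered after quantile normalization, and 381 and 385 after median centring, so the excess of raised genes at 2-fold was not seen under either scaling.

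Set against single wildtype arrays, the same tumors gave different pictures. The tumor mean was at least 2-fold above replicate 1 in 126 genes and below it in 391 genes. Against replicate 2 these counts were 893 and 685, and against replicate 3 they were 984 and 484. Replicate 1 was the highest wildtype array in 413 of the 439 genes raised 2-fold, and the lowest in 273 of the 339 genes lowered 2-fold. The median over the 439 raised genes of the tumor mean minus replicate 1 was 0.66, against 1.85 for replicate 2 and 1.78 for replicate 3. Over the 339 lowered genes these medians were -1.04, -1.94 and -1.55. Replicate 1 thus lay nearer to the tumors than the other wildtype arrays did in both directions, and more so in the raised genes.

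**Figure D1:**
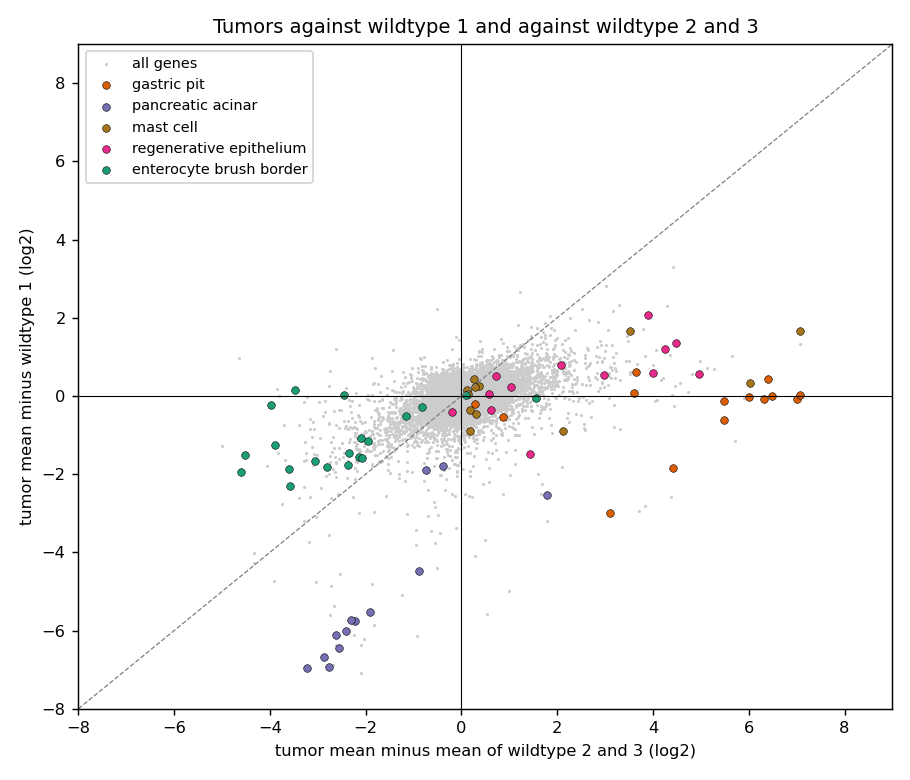
Each of 19938 genes by the tumor mean minus the mean of wildtype replicates 2 and 3 (horizontal axis, log2) and the tumor mean minus wildtype replicate 1 (vertical axis, log2), with genes of 5 lists coloured and the dashed line where both differences are equal. Gastric pit genes lie far to the right and mostly near 0 on the vertical axis (list medians 5.58, 5.25 and -0.074 against replicates 2, 3 and 1), while most brush border genes lie below 0 on both axes.

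Leaving out a wildtype array changed the counts. Without replicate 1, 3102 genes (15.6%) rose and 1424 (7.14%) fell. Without replicate 2, 606 genes (3.04%) rose and 334 (1.68%) fell, and without replicate 3, 627 (3.14%) rose and 463 (2.32%) fell. List counts without a wildtype array, given below, stand against these shares. In both of these fits replicate 1 is 1 of only 2 wildtype arrays. All 439 raised and 339 lowered 2-fold genes kept their direction in each of these fits, and 236 of the raised and 215 of the lowered genes passed the test in all 3. These genes were chosen on the same arrays, which makes a kept direction likely, so it is no independent support. Counted with the 2-fold threshold in each fit, 800 genes were higher and 482 lower without replicate 1, 206 and 206 without replicate 2, and 216 and 258 without replicate 3.

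**Figure D2:**
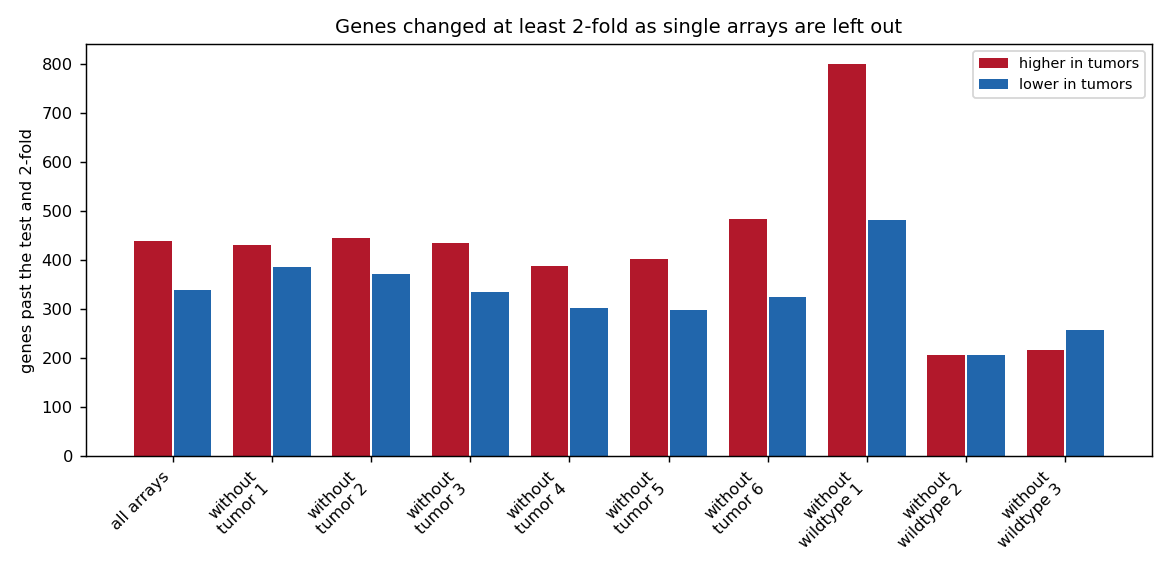
Number of genes that passed the test and were at least 2-fold higher (red) or lower (blue) in tumors than in wildtype duodenum, with all arrays and without each array in turn; bars start at 0. The higher and lower genes number 439 and 339 with all arrays, 800 and 482 without wildtype replicate 1, 206 and 206 without replicate 2 and 216 and 258 without replicate 3.

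The genes in which the tumors were farthest from every wildtype array are those with the widest gap between the nearest tumor and the nearest wildtype array, 8 in each direction. All 16 passed the test without each wildtype array in turn, which the choice by gap on the same arrays makes likely and which is no independent support. Of the 439 genes raised 2-fold, 314 did not overlap and 17 had a gap of at least 1 log2 unit; of the 339 lowered genes, 292 did not overlap and 52 had such a gap.

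Among the raised genes, Lrg1, a secreted leucine-rich glycoprotein induced in inflammation, read 11.48, 12.08 and 12.67 in tumors, against 8.80, 7.31 and 8.06 in wildtype duodenum. Cfi, the complement protease factor I, read 10.92, 11.73 and 11.99 in tumors, against 9.24, 6.73 and 7.73 in wildtype duodenum. Both genes were higher in every tumor than in any wildtype array, and the differences were 4.05 ± 0.53 (SE, adjusted p = 0.000519) and 3.63 ± 0.56 (SE, adjusted p = 0.00129). Btc, the ErbB ligand betacellulin (transcript cluster 10531274), read 9.55, 9.86 and 10.08 in tumors, against 8.38, 7.46 and 7.85 in wildtype duodenum. Its tumor values lay close together and apart from wildtype duodenum, and it rose by 1.93 ± 0.18 (SE, adjusted p = 9.32e-05). Nox1, a superoxide-producing oxidase of gut epithelium, read 8.94, 9.43 and 10.09 in tumors, against 7.35, 5.83 and 6.91 in wildtype duodenum. Ly6d, a lipid-anchored surface protein, read 11.25, 11.64 and 11.85 in tumors, against 9.65, 9.02 and 8.83 in wildtype duodenum. No tumor fell below a wildtype array in either gene, and they rose by 2.83 ± 0.34 and 2.42 ± 0.27 (SE). The 8 were completed by Asz1, a germ cell protein of the piRNA pathway, at 2.96 ± 0.31, Samd5 at 2.54 ± 0.26 and the ceramide synthase Cers3 at 1.75 ± 0.18 (SE).

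Among the lowered genes, Cyp3a11, a cytochrome P450 that oxidises drugs and bile acids (transcript cluster 10535704, chromosome 5), read 7.45, 8.69 and 9.75 in tumors, against 12.51, 12.75 and 12.91 in wildtype duodenum. The wildtype arrays were close to each other, every tumor was below them, and the difference was -4.22 ± 0.39 (SE, adjusted p = 9.32e-05), a level 18.7-fold higher in wildtype duodenum. Cyp3a genes have near-identical copies that may share probes. Aqp7, a water and glycerol channel, read 7.92, 8.58 and 9.37 in tumors, against 12.34, 12.07 and 11.51 in wildtype duodenum. Slc28a1, a sodium-coupled nucleoside carrier, read 7.72, 8.28 and 8.86 in tumors, against 11.37, 11.56 and 11.05 in wildtype duodenum. Neither gene overlapped between the groups, and the differences were -3.37 ± 0.37 (SE, adjusted p = 0.000171) and -3.06 ± 0.33 (SE, adjusted p = 0.000157). Slc27a2, which activates and takes up long fatty acids, read 7.85, 8.48 and 9.17 in tumors, against 11.30, 12.12 and 12.45 in wildtype duodenum. Spink1, a trypsin inhibitor, read 7.86, 8.62 and 9.66 in tumors, against 11.81, 12.07 and 11.76 in wildtype duodenum. Spink1, which the pancreas also makes, differed little between the 3 wildtype arrays, while the acinar genes were low in replicate 2, and the part of pancreatic tissue in its difference was not tested. The others of the 8 were the surface enzyme Bst1 at -4.32 ± 0.41, the glycerophosphodiesterase Gdpd2 at -2.97 ± 0.39 and the ubiquitin ligase Trim38 at -2.97 ± 0.40 (SE).

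**Figure D3:**
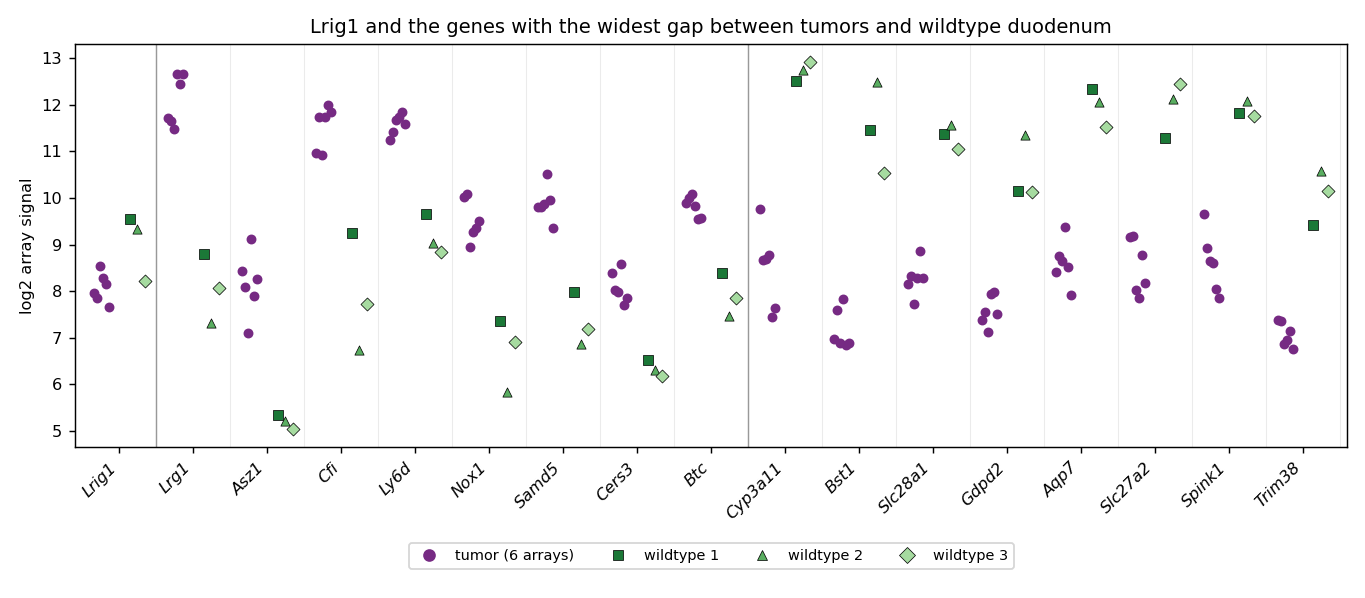
Log2 array signal (vertical axis) of Lrig1, the 8 raised and the 8 lowered genes with the widest gap between the nearest tumor and the nearest wildtype array, with 6 tumors on the left and wildtype replicates 1, 2 and 3 on the right of each gene; all points are single mice. For Lrg1 the tumors lie at 11.48 to 12.67 and the wildtype arrays at 7.31 to 8.80, and for Cyp3a11 the tumors lie at 7.45 to 9.75 and the wildtype arrays at 12.51 to 12.91.

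Windows from 250 bases before to 50 bases after the gene start, as RefSeq gives them for GRCm38.p6, were at hand for 15614 of the 19938 genes, for 336 of the 439 raised 2-fold and for 267 of the 339 lowered 2-fold. The string CAAAGTCCA, the nuclear receptor HNF4 being known to bind sites of this form, was searched on both strands. It stood in 11 of 267 windows of lowered genes (4.12%), in 0 of 336 windows of raised genes and in 70 of all 15614 windows (0.448%). The related CAAAGGTCA, which begins with the same letters, stood in 2.25% of lowered, 0.298% of raised and 0.423% of all windows. A match is a description of these windows and not a bound site. Hnf4a itself read 12.73, 12.91 and 13.12 in tumors, against 13.01, 12.96 and 12.90 in wildtype duodenum, a difference of -0.025 ± 0.098 (SE, adjusted p = 0.913). The related gene Hnf4g fell, with its values given below among the transcription factors. A part of either gene in the lowered genes was not tested.

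Of the 11 lowered genes with CAAAGTCCA, 4 are shown because they cover a drug-metabolising enzyme, a brush border sugar enzyme, an amino acid carrier and the scaffold that holds carriers at the brush border. Each window is printed in the gene's own direction, with the string, or its reverse complement in Treh, in capitals.
Cyp3a11, GRCm38.p6 chr5:145879805-145880104, minus strand: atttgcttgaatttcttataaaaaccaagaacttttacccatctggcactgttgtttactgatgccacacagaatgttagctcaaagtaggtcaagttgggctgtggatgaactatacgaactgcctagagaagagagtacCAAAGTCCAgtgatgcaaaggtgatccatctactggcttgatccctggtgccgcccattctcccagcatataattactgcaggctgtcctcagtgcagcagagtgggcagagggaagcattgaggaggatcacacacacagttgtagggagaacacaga
Treh, GRCm38.p6 chr9:44672983-44673282, plus strand: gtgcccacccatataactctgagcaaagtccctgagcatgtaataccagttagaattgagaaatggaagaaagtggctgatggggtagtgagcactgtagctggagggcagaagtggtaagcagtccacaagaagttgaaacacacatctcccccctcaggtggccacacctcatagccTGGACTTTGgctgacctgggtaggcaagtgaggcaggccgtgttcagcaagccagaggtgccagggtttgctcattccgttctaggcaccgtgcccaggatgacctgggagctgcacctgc
Slc3a1, GRCm38.p6 chr17:85028097-85028396, plus strand: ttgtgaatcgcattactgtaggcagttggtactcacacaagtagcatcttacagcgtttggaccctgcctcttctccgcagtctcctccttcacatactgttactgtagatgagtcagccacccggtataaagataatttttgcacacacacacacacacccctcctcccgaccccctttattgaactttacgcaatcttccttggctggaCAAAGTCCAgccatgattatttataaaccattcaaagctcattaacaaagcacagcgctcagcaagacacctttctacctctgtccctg
Pdzk1, GRCm38.p6 chr3:96829815-96830114, plus strand: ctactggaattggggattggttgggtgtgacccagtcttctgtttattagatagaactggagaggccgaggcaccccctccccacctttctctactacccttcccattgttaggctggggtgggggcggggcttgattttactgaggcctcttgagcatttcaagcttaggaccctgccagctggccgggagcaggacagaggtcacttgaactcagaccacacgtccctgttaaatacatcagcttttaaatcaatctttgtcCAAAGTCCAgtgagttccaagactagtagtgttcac
The string begins 109 bases before the start in Cyp3a11, 71 in Treh and 39 in Slc3a1, and in Pdzk1 it lies after the start.

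The levels of these genes beside their windows were as follows. Treh, the trehalase of the brush border, read 9.04, 9.41 and 10.13 in tumors, against 10.98, 12.05 and 11.68 in wildtype duodenum, and fell by 2.05 ± 0.30 (SE, adjusted p = 0.000853). Slc3a1, the heavy chain of a carrier for cystine and basic amino acids, read 9.72, 10.31 and 11.10 in tumors, against 11.16, 12.38 and 11.93 in wildtype duodenum, and fell by 1.42 ± 0.33 (SE, adjusted p = 0.0118). Pdzk1, the scaffold protein, read 6.08, 6.42 and 6.51 in tumors, against 7.81, 10.27 and 8.92 in wildtype duodenum, and fell by 2.66 ± 0.47 (SE, adjusted p = 0.00255). In each of the 3 genes wildtype replicate 1 was the wildtype array nearest to the tumors. The remaining genes with the string were Btnl2, Cd302, Cyp2c67, Cyp2c68, Pipox, Ptpn22 and Trim31. In Cd302, Cyp2c67 and Cyp2c68 the highest tumor lay above the lowest wildtype array, so the groups overlapped. The windows of Cyp2c67 and Cyp2c68 are nearly alike around the string, so these matches are not separate occurrences. Their near-identical copies may also share probes.

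The other strings were searched in the same windows, on both strands. TTTATTG and TTTATGG, which caudal factors such as Cdx2 bind, stood in 7.12% and 4.49% of lowered, 3.27% and 1.19% of raised and 3.6% and 2.36% of all windows. TGATAA, read by GATA factors, stood in 9.36% of lowered, 4.76% of raised and 6.84% of all windows, and GTTAAT, the inner part of HNF1 sites, in 9.36% of lowered, 7.74% of raised and 6.01% of all windows. TGACTCA, the AP-1 site, stood in 7.12% of lowered, 7.44% of raised and 4.53% of all windows, and TGTTTAC, a site of forkhead factors such as Foxa1, in 2.62% of lowered, 4.76% of raised and 3.02% of all windows. CCGGAAGT, a site of Ets factors common in promoters of housekeeping genes, stood in 1.12% of lowered, 1.49% of raised and 5.58% of all windows, and TATAAA, the TATA box, in 16.1% of lowered, 12.2% of raised and 12.1% of all windows. A string not found in a window says only that these letters are not in it.

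Most genes of the stomach surface and of mucous glands were high in the tumors and in wildtype replicate 1 and low in replicates 2 and 3. Of 14 pit cell genes 9 rose and 0 fell, with a median difference of 3.53, against -0.0023 over all genes. The list mean was 11.6 to 13.3 in tumors, against 12.6, 7.11 and 7.90 in wildtype replicates 1, 2 and 3, and replicate 1 lay inside the tumor range in 12 of the 14 genes. Vsig1, a junction protein of stomach epithelium, read 11.80, 12.11 and 13.02 in tumors, against 12.17, 5.25 and 5.02 in wildtype duodenum. Gkn2, a gastrokine secreted by pit cells, read 14.01, 14.12 and 14.35 in tumors, against 14.20, 6.94 and 7.32 in wildtype duodenum. In both genes the tumors and replicate 1 overlapped and replicates 2 and 3 lay far below, with differences of 4.72 ± 1.12 (SE, adjusted p = 0.0126) and 4.65 ± 1.22 (SE, adjusted p = 0.0207). The SE here comes from the spread shared by all groups, while both genes varied far more among the wildtype arrays than among the tumors. Muc5ac, the pit mucin, read 7.27, 8.79 and 13.93 in tumors, against 12.88, 6.62 and 6.94 in wildtype duodenum, and did not pass, at 1.08 ± 1.56 (SE, adjusted p = 0.731). Without replicate 1, 11 of the 14 genes rose. Without replicate 2, and again without replicate 3, 0 rose by limma's test, with lowest adjusted p of 0.104 and 0.0938 and list medians of 2.48 and 2.72. The median of the tumor mean minus each wildtype array was -0.074 for replicate 1, 5.58 for replicate 2 and 5.25 for replicate 3.

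Of 10 genes of Brunner glands and mucous neck cells, 6 rose and 0 fell, with a median of 1.92. Muc6, the gland mucin, read 13.49, 13.92 and 14.23 in tumors, against 13.53, 7.14 and 8.40 in wildtype duodenum. Pgc, the precursor of the protease gastricsin, read 11.25, 11.76 and 13.79 in tumors, against 11.50, 6.87 and 7.31 in wildtype duodenum. They rose by 4.17 ± 1.04 (SE, adjusted p = 0.0162) and 3.66 ± 0.83 (SE, adjusted p = 0.00995), and in both replicate 1 was the highest wildtype array. Without replicate 1, 7 of the 10 rose, and without replicates 2 and 3 in turn 0 rose, with lowest adjusted p of 0.0683 and 0.065. Of 12 genes of chief and parietal cells 0 passed, and 0 had an unadjusted p below 0.05. Of 10 genes of squamous epithelium 2 rose, namely Ivl at 0.84 and Krt14 at 0.45, while the keratin Krt5 and the transcription factor Trp63 differed by 0.039 and -0.038. Without wildtype replicates 1, 2 and 3 in turn 3, 0 and 1 squamous genes rose. No gene of the 2 mucous lists or of the squamous list passed without each wildtype array in turn.

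Most enterocyte genes fell. Of 20 genes of the brush border 15 fell and 0 rose, the median being -2.11, beside 4.48% of all genes that fell. The list mean was 9.87 to 10.2 in tumors, against 11.2, 13.0 and 12.1 in wildtype replicates 1, 2 and 3, so the tumors were below each of them. Without replicates 1, 2 and 3 in turn, 16, 14 and 14 of the 20 fell, and 14 of the 15 passed in all 3 of these fits. Replicate 1 was the lowest wildtype array in 18 of the 20 genes.

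Lct, the lactase, read 7.67, 8.06 and 8.77 in tumors, against 9.66, 13.37 and 11.97 in wildtype duodenum. Dpp4, a dipeptidyl peptidase, read 8.38, 8.59 and 9.20 in tumors, against 10.94, 12.79 and 11.66 in wildtype duodenum. Every tumor was below every wildtype array in both, and they fell by 3.52 ± 0.59 and 3.16 ± 0.35 (SE). Naaladl1, a peptidase, read 6.31, 6.80 and 7.08 in tumors, against 8.71, 12.76 and 10.005 in wildtype duodenum. Slc2a2, a glucose and fructose carrier, read 8.69, 8.90 and 9.29 in tumors, against 10.79, 12.58 and 12.47 in wildtype duodenum. Neither gene overlapped between the groups, and replicate 1 was the wildtype array nearest to the tumors in both. The sucrase Sis differed by -2.48 ± 0.34, the glutamyl aminopeptidase Enpep by -3.02 ± 0.51, the aminopeptidase Anpep by -2.59 ± 0.27, the peptide carrier Slc15a1 by -2.17 ± 0.26 and the sodium-glucose carrier Slc5a1 by -1.92 ± 0.20 (SE), and all of these passed. Alkaline phosphatases did not follow: Alpi differed by 0.073 ± 0.12 (SE, adjusted p = 0.77) and Akp3 by 1.02 ± 0.90 (SE, adjusted p = 0.541), and neither passed.

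Fat absorption followed the brush border: 15 of its 18 genes fell and 0 rose, the median being -1.24, and 17, 9 and 10 fell without wildtype replicates 1, 2 and 3. Apoc3, an apolipoprotein of chylomicrons, read 10.09, 10.63 and 11.25 in tumors, against 13.07, 13.97 and 13.34 in wildtype duodenum. Fabp2, which carries fatty acids inside enterocytes, read 10.19, 10.93 and 11.39 in tumors, against 11.61, 13.74 and 13.26 in wildtype duodenum. Both were lower in every tumor, at -2.75 ± 0.26 (SE, adjusted p = 9.32e-05) and -1.997 ± 0.40 (SE, adjusted p = 0.00484). The fatty acid receptor Cd36 fell by 2.39 ± 0.55, Fabp1 by 1.91 ± 0.37 and the lipid transfer protein Mttp by 1.25 ± 0.24 (SE). The lipoprotein receptor Scarb1 differed by 0.045 ± 0.53 (SE, adjusted p = 0.97) and did not pass.

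Among 20 genes of drug metabolism 11 were lower and 0 rose, the median being -1.29, and 15, 8 and 7 fell without wildtype replicates 1, 2 and 3. Cyp2b10, a cytochrome P450 induced through the nuclear receptor CAR, read 7.47, 7.64 and 8.81 in tumors, against 9.19, 13.09 and 12.72 in wildtype duodenum. Nr1i3, which encodes CAR, read 7.79, 8.68 and 8.81 in tumors, against 9.02, 10.87 and 10.51 in wildtype duodenum. Tumors and wildtype arrays did not overlap in Cyp2b10, with replicate 1 nearest, and the genes fell by 3.76 ± 0.67 (SE, adjusted p = 0.00261) and 1.60 ± 0.37 (SE, adjusted p = 0.0115). The export pumps Abcc2 and Abcg2 fell by 1.86 ± 0.30 and 1.62 ± 0.26 (SE). Cyp2c66, from a family with near-identical copies, fell by 2.18 ± 0.31 (SE). Of 12 genes of mineral absorption only the ferroxidase Heph passed, at -0.92 ± 0.22 (SE), and Cybrd1 at 2.03 ± 1.31 and S100g at 1.44 ± 1.37 did not, both being low in replicate 2 alone. Heph lost its call without wildtype replicate 2 (adjusted p = 0.0666) and replicate 3 (adjusted p = 0.0702).

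Rnase1, a secreted ribonuclease that the pancreas also makes, read 8.09, 9.10 and 10.94 in tumors, against 14.04, 10.79 and 13.87 in wildtype duodenum, and Pnliprp2, a lipase-related protein likewise made by the pancreas, read 8.05, 9.15 and 9.37 in tumors, against 13.51, 10.51 and 12.45 in wildtype duodenum. In both genes replicates 1 and 3, which hold the acinar genes, were higher than replicate 2. They fell by 3.61 ± 0.96 (SE, adjusted p = 0.022) and 3.20 ± 0.80 (SE, adjusted p = 0.0164), and the part of acinar tissue in this was not tested. The adjusted p without wildtype replicates 1, 2 and 3 in turn was 0.0621, 0.0195 and 0.127 for Rnase1 and 0.0522, 0.019 and 0.0811 for Pnliprp2. Of the 13 acinar genes 0 passed limma's test, and 3 were lower at an unadjusted p below 0.05, with a median of -3.46, and 1 fell without wildtype replicate 2. Of 8 liver genes 1 fell, Cps1 at -0.68, which gut epithelium also makes, and it passed without replicate 1 but not without replicate 2 (adjusted p = 0.0579) or replicate 3 (adjusted p = 0.0694).

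Among 22 transcription factors of intestine and stomach 3 rose and 4 fell, beside 9.65% and 4.48% of all genes. Foxa1, a forkhead factor of gut endoderm, read 11.38, 12.02 and 12.39 in tumors, against 10.94, 8.71 and 8.81 in wildtype duodenum. It was higher in every tumor and rose by 2.45 ± 0.38 (SE, adjusted p = 0.00131), and its relative Foxa3 rose by 1.20 ± 0.36 (SE, adjusted p = 0.0382). Maf, a factor of villus enterocytes, read 9.90, 10.42 and 10.97 in tumors, against 11.17, 12.12 and 11.59 in wildtype duodenum, and differed by -1.17 ± 0.23 (SE, adjusted p = 0.00441). Without wildtype replicates 1, 2 and 3 in turn 3, 1 and 1 factors rose and 6, 1 and 1 fell, and Foxa1 and Maf were the factors that passed in each fit. Hnf4g fell by 1.12 ± 0.26 (SE, adjusted p = 0.0105), Gata6 by 0.50 ± 0.13 (SE), and Elf3 rose by 0.64 ± 0.18 (SE). The intestinal factors Cdx1 and Cdx2 differed by -0.33 ± 0.15 and -0.40 ± 0.20 and the stomach factor Sox2 by -0.20 ± 0.57 (SE), and none of them passed.

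Several genes of repairing epithelium rose. Of 13 genes known from regenerating or fetal-like gut epithelium, 7 rose and 0 fell, with a median of 1.65, beside 9.65% of all genes that rose. Without wildtype replicates 1, 2 and 3 in turn 9, 5 and 5 rose, and Anxa1, Anxa3, Il1rn, Sprr1a and Krt7 passed in all 3 fits. Replicate 1 was the highest wildtype array in 12 of the 13 genes. Anxa1, an annexin that damps inflammation, read 10.30, 10.96 and 11.42 in tumors, against 9.74, 6.89 and 6.50 in wildtype duodenum. Il1rn, the antagonist of the interleukin 1 receptor, read 9.67, 11.53 and 11.79 in tumors, against 9.08, 7.18 and 7.33 in wildtype duodenum. In both the tumors lay above all wildtype arrays with replicate 1 nearest, at 3.23 ± 0.51 (SE, adjusted p = 0.00149) and 3.30 ± 0.46 (SE, adjusted p = 0.000743). Sprr1a, a cornified envelope protein made in injured gut, read 13.62, 13.67 and 13.76 in tumors, against 13.13, 8.57 and 8.87 in wildtype duodenum, and Clu, a secreted chaperone, read 12.56, 12.89 and 13.12 in tumors, against 11.51, 7.26 and 9.52 in wildtype duodenum. Sprr1a rose by 3.49 ± 0.69 (SE, adjusted p = 0.00451). Clu rose by 3.44 ± 0.996 (SE, adjusted p = 0.0324), but its adjusted p was 0.23 without replicate 2 and 0.108 without replicate 3. The alarmin Il33 differed by 1.65 ± 0.63 (SE, adjusted p = 0.103) and did not pass.

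Other genes with the largest rises had replicate 1 just under the tumors. Wfdc18, a small secreted protein of the protease inhibitor type, read 12.12, 12.40 and 12.65 in tumors, against 11.36, 6.67 and 6.78 in wildtype duodenum. Chad, a matrix protein of cartilage, read 11.62, 12.36 and 13.07 in tumors, against 11.48, 7.51 and 7.28 in wildtype duodenum. Tmem45a, a membrane protein, read 9.23, 10.09 and 11.19 in tumors, against 9.15, 5.82 and 5.87 in wildtype duodenum. In these 3 genes replicates 2 and 3 lay more than 3 log2 units below the lowest tumor while replicate 1 lay within 1 unit of it. Of the 12 raised genes with the largest change and no overlap 12 passed without replicate 1, and 9 passed without replicate 2 and without replicate 3. Of the 12 lowered genes so chosen 11, 12 and 11 passed without replicates 1, 2 and 3. Both sets were chosen on the same arrays, which makes passing again likely, so it is no independent support.

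Among 15 genes that encode ErbB ligands, ErbB receptors and their inhibitor Errfi1, 4 rose and 0 fell, with a median of 0.30. Over all genes 9.65% rose. Of the ligands, Btc rose as given above, Ereg, the gene of epiregulin, rose by 1.18 ± 0.34 (SE, adjusted p = 0.0318) and the neuregulin gene Nrg1 by 0.69 ± 0.20 (SE, adjusted p = 0.0328). Of the receptors, Egfr read 10.12, 10.27 and 10.63 in tumors, against 9.85, 9.03 and 8.59 in wildtype duodenum. Every tumor was above every wildtype array in Egfr, and it rose by 1.14 ± 0.20 (SE, adjusted p = 0.00248). Erbb2 differed by -0.015 ± 0.13 and Erbb3 by -0.15 ± 0.16 (SE), and neither passed. Btc and Egfr passed without each wildtype array in turn, and Ereg and Nrg1 did not pass without replicate 2 or replicate 3.

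Of 18 genes that ERK induces or that inhibit it, 9 rose and 0 fell, with a median of 0.61, and 13, 4 and 4 rose without wildtype replicates 1, 2 and 3. Over all genes 9.65% rose with all arrays, and 15.6%, 3.04% and 3.14% without these replicates. Etv5, an Ets transcription factor induced by ERK, read 8.35, 8.58 and 9.42 in tumors, against 7.69, 7.37 and 6.75 in wildtype duodenum. Dusp4, a phosphatase that inactivates ERK, read 8.22, 8.61 and 9.13 in tumors, against 8.06, 6.75 and 7.30 in wildtype duodenum. They rose by 1.42 ± 0.23 (SE, adjusted p = 0.00171) and 1.31 ± 0.24 (SE, adjusted p = 0.0035), and with Etv4 and the inhibitor Spred1 they passed without each wildtype array. Plaur, the urokinase receptor, read 9.42, 10.39 and 10.88 in tumors, against 10.01, 7.25 and 7.53 in wildtype duodenum, and rose by 2.07 ± 0.46 (SE, adjusted p = 0.00949). The feedback phosphatase Dusp6 differed by -0.26 ± 0.33, Dusp5 by -0.18 ± 0.13 and the inhibitor Spry2 by 0.38 ± 0.13 (SE), and none of these passed.

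Of 15 crypt stem cell genes 4 rose and 3 fell, beside 9.65% and 4.48% of all genes. Prom1, a surface protein of stem and progenitor cells, read 11.30, 11.70 and 11.96 in tumors, against 10.81, 8.88 and 8.67 in wildtype duodenum. Sox9, a transcription factor of the crypt base, read 11.39, 12.28 and 12.59 in tumors, against 11.36, 9.86 and 9.95 in wildtype duodenum. They rose by 2.25 ± 0.39 (SE, adjusted p = 0.00226) and 1.77 ± 0.29 (SE, adjusted p = 0.00176). Olfm4 read 10.78, 11.31 and 11.83 in tumors, against 12.17, 12.41 and 12.14 in wildtype duodenum, and fell by 0.91 ± 0.19 (SE, adjusted p = 0.00626). Lgr5, the receptor that marks crypt base columnar cells, read 6.60, 6.98 and 8.02 in tumors, against 7.48, 8.59 and 7.90 in wildtype duodenum, and did not pass, at -0.89 ± 0.31 (SE, adjusted p = 0.072). Hopx and Aqp4 fell by 0.56 and 0.84, and Slc12a2 and Smoc2 rose by 0.85 and 0.50. Prom1, Sox9, Slc12a2 and Hopx passed without each wildtype array, and Olfm4 not without replicate 2 (adjusted p = 0.0518).

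Of 17 Wnt targets 4 rose and 2 fell, with a median of -0.00012, beside 9.65% and 4.48% of all genes. Cd44, a hyaluronan receptor, read 11.96, 12.32 and 12.89 in tumors, against 11.04, 9.12 and 9.52 in wildtype duodenum. All tumors were above all wildtype arrays, and it rose by 2.45 ± 0.33 (SE, adjusted p = 0.000549). Ephb3, a receptor that positions crypt cells, rose by 1.34 ± 0.24 and the cyclin Ccnd1 by 1.05 ± 0.21 (SE), and these 3 genes passed without each wildtype array. Axin2, a feedback inhibitor of Wnt signalling, read 7.94, 8.21 and 8.59 in tumors, against 8.77, 9.16 and 8.74 in wildtype duodenum, and fell by 0.64 ± 0.17 (SE, adjusted p = 0.0224). Sp5 fell by 0.50 ± 0.13 (SE). Both lost their calls without wildtype replicate 2 (adjusted p = 0.159 for Axin2 and 0.106 for Sp5) and replicate 3 (adjusted p = 0.0539 and 0.0543). The Wnt inhibitor Notum differed by 0.054 ± 0.11 and Lef1 by -0.14 ± 0.13 (SE), and neither passed.

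Of 20 proliferation genes 1 rose, the replication helicase gene Mcm5 at 0.55 ± 0.16 (SE, adjusted p = 0.0332), with a median of 0.43. The list mean was 9.12 to 10.02 in tumors, against 9.40, 9.29 and 8.97 in wildtype replicates 1, 2 and 3, and the groups overlapped. All 20 differences were above 0, from 0.042 to 0.60. At an unadjusted p below 0.05 of limma's test, 10 of the 20 were higher and 0 were lower. The share of all genes at this unadjusted threshold was not counted, so the 10 have no background. At the adjusted threshold 1 of the 20 rose, beside 9.65% of all genes. Mki67, which marks dividing cells, was below the list median and differed by 0.11 ± 0.22 (SE, adjusted p = 0.817). Without wildtype replicates 1, 2 and 3 in turn 6, 0 and 0 of the 20 rose, and the call of Mcm5 was lost without replicate 2 (adjusted p = 0.0686) and without replicate 3 (adjusted p = 0.172).

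Secretory cell genes moved in parts. Of 11 goblet cell genes 3 rose, namely the transcription factors Creb3l1 at 1.78 ± 0.44 and Spdef at 1.50 ± 0.37 and the mucin-folding protein Agr2 at 1.05 ± 0.20 (SE), while the goblet mucin Muc2 differed by -0.54 ± 0.30 (SE, adjusted p = 0.278). Without wildtype replicates 1, 2 and 3 in turn 6, 1 and 1 goblet genes rose, and of the 3 named Agr2 alone passed in each fit. The adjusted p of Creb3l1 was 0.12 and 0.104, and that of Spdef 0.118 and 0.0837, without replicates 2 and 3. Of 12 Paneth cell and Reg genes 1 rose, the protease Habp2 at 2.79 ± 0.56 (SE, adjusted p = 0.0051), and 2 fell, the defensin Defa24 at -2.42 ± 0.75 and the lectin Itln1 at -1.51 ± 0.38 (SE). Habp2 passed without each wildtype array, while Defa24 passed in none of these fits and Itln1 only without replicate 3. Defensin and Reg genes have near-identical copies that may share probes. Of 18 enteroendocrine genes the incretin genes Gcg and Gip fell by 1.92 ± 0.43 and 1.72 ± 0.33 (SE), and 16 did not pass, among them Chga at -0.19 ± 0.37 (SE). Gip passed without each wildtype array, and Gcg not without replicate 2 (adjusted p = 0.0695) or replicate 3 (adjusted p = 0.0643). Of 10 tuft cell genes Avil, an actin-binding protein, rose by 2.03 ± 0.45 and Sh2d6 fell by 0.77 ± 0.24 (SE), and the tuft kinase Dclk1 differed by 0.16 ± 0.26 (SE, adjusted p = 0.768). Neither tuft gene passed in all 3 fits without a wildtype array: Avil had an adjusted p of 0.0733 and 0.0737 without replicates 2 and 3, and Sh2d6 one of 0.177 and 0.0872 without replicates 1 and 2.

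Most genes of T cells and of antigen presentation fell. Of 16 T and NK cell genes 12 fell and 0 rose, the median being -1.43, and 14, 8 and 9 fell without wildtype replicates 1, 2 and 3. The list mean was 7.09 to 7.98 in tumors, against 8.36, 9.21 and 8.66 in the wildtype replicates, so all tumors were lower. Gzmb, a protease of killer cells, read 6.79, 7.10 and 8.02 in tumors, against 9.23, 10.27 and 9.76 in wildtype duodenum. Cd3g, a chain of the T cell receptor complex, read 6.87, 7.50 and 8.90 in tumors, against 9.40, 10.48 and 9.37 in wildtype duodenum. They fell by 2.51 ± 0.26 (SE, adjusted p = 0.000144) and 2.01 ± 0.39 (SE, adjusted p = 0.00397). Itgae, the integrin that holds T cells in epithelium, fell by 1.32 ± 0.24 and the chemokine Ccl5 by 2.10 ± 0.37 (SE). The T helper gene Cd4 differed by -0.56 ± 0.19 (SE, adjusted p = 0.0682) and did not pass.

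In the 15 genes for presenting antigen and answering interferon, 11 fell and 0 rose, the median being -1.37, and 12, 8 and 9 fell without wildtype replicates 1, 2 and 3. H2-Aa, a class II chain, read 10.49, 11.002 and 11.40 in tumors, against 12.34, 13.33 and 13.04 in wildtype duodenum. Psmb8, a subunit of the immunoproteasome, read 7.93, 8.30 and 8.91 in tumors, against 9.59, 10.80 and 10.47 in wildtype duodenum. They fell by 1.91 ± 0.21 (SE, adjusted p = 0.000171) and 1.87 ± 0.25 (SE, adjusted p = 0.000575). Ciita, the switch for class II genes, fell by 1.37 ± 0.24 and the peptide transporter Tap1 by 1.46 ± 0.22 (SE). The interferon-induced genes Ifit1 and Oas1a differed by -1.64 ± 0.70 and -0.19 ± 0.13 (SE) and did not pass. H2 genes vary between mouse strains, and the background of these mice was mixed.

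Of 9 B and plasma cell genes 0 passed limma's test, and 1 was lower at an unadjusted p below 0.05. Of 15 macrophage and dendritic cell genes Cd14, a receptor for bacterial lipopolysaccharide, rose by 1.59 ± 0.22 (SE, adjusted p = 0.000717), while Csf1r and Flt3 fell by 0.81 ± 0.25 and 0.33 ± 0.099 (SE), and Adgre1 differed by -0.12 ± 0.17 (SE). Of these 3 changed genes Cd14 alone passed without each wildtype array. Csf1r had an adjusted p of 0.241 and 0.0739 without replicates 2 and 3, and Flt3 one of 0.132 and 0.0782 without replicates 1 and 2. Of 11 neutrophil genes 0 passed, and at an unadjusted p below 0.05 2 were higher and 1 was lower.

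Of 12 mast cell genes 3 rose and 0 fell, and the 3 are proteases of the Mcpt family. Mcpt2 read 12.10, 13.09 and 13.32 in tumors, against 11.25, 6.15 and 5.55 in wildtype duodenum. Mcpt1 read 10.20, 11.84 and 12.47 in tumors, against 11.21, 5.82 and 5.24 in wildtype duodenum. Replicate 1 was the highest wildtype array in both, below every tumor in Mcpt2 and inside the tumor range in Mcpt1, and they rose by 5.26 ± 0.96 (SE, adjusted p = 0.00299) and 4.13 ± 1.02 (SE, adjusted p = 0.0157). Mcpt4, a further protease, rose by 2.89 ± 0.47 (SE, adjusted p = 0.00164). Mcpt2 and Mcpt4 passed without each wildtype array, and Mcpt1 had an adjusted p of 0.117 and 0.118 without replicates 2 and 3. These genes have near-identical copies that may share probes. The carboxypeptidase Cpa3 differed by 1.12 ± 0.64 (SE, adjusted p = 0.302), the receptor Kit by 0.053 ± 0.17 and the IgE receptor chain Ms4a2 by -0.0033 ± 0.14 (SE), and none of them passed.

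Of 19 genes of inflammatory cytokines and prostaglandins 4 rose and 0 fell, beside 9.65% of all genes that rose. Il1a, the gene of interleukin 1 alpha, read 6.40, 8.69 and 9.18 in tumors, against 6.97, 5.77 and 5.36 in wildtype duodenum. Ptgs2, the inducible cyclooxygenase, read 8.75, 10.46 and 10.75 in tumors, against 9.40, 8.33 and 7.95 in wildtype duodenum. They rose by 2.15 ± 0.54 (SE, adjusted p = 0.0171) and 1.49 ± 0.43 (SE, adjusted p = 0.0319), Il11 rose by 1.18 ± 0.30 and the chemokine Cxcl5 by 1.01 ± 0.28 (SE). Il6 differed by 0.32 ± 0.18 and Tnf by 0.62 ± 0.23 (SE), and neither passed. Without replicate 1 there were 4 raised genes, and without replicates 2 and 3 in turn there were 0, with lowest adjusted p of 0.0932 and 0.0629. Among 12 acute phase and complement genes Lrg1 and Cfi rose, while Saa1 differed by 0.20 ± 0.14 and Cfb by -0.51 ± 0.19 (SE) and did not pass. Of 12 genes of type 2 responses Chil1 rose by 0.66 ± 0.18 (SE, adjusted p = 0.023), and lost its call without wildtype replicate 2 (adjusted p = 0.108) and replicate 3 (adjusted p = 0.0588). Without replicates 1, 2 and 3 in turn 4, 0 and 0 genes of this list rose. Chil4, a chitinase-like protein with near-identical relatives, read 9.71, 10.11 and 13.31 in tumors, against 11.88, 4.95 and 5.05 in wildtype duodenum, and differed by 3.42 ± 1.22 (SE, adjusted p = 0.0782). Retnlb, a goblet cell protein of worm infections, read 7.99, 9.04 and 10.09 in tumors, against 11.98, 5.32 and 5.35 in wildtype duodenum, with replicate 1 above every tumor.

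Of 22 fibroblast and matrix genes 8 rose and 0 fell, with a median of 0.69, and 10, 1 and 0 rose without wildtype replicates 1, 2 and 3. The shares of all genes that rose were 9.65% with all arrays and 15.6%, 3.04% and 3.14% without these replicates. Inhba, a subunit of activin, read 7.87, 9.32 and 9.84 in tumors, against 8.15, 6.98 and 7.17 in wildtype duodenum. Lox, which cross-links collagen, read 7.82, 8.27 and 9.67 in tumors, against 7.70, 6.22 and 6.47 in wildtype duodenum. They rose by 1.67 ± 0.36 (SE, adjusted p = 0.00792) and 1.63 ± 0.38 (SE, adjusted p = 0.0118), and the inhibitor of metalloproteases Timp1 rose by 1.46 ± 0.37 (SE, adjusted p = 0.0183). The collagen Col3a1 differed by 0.26 ± 0.15 and fibronectin, Fn1, by -0.54 ± 0.34 (SE), and neither passed. Of 10 smooth muscle genes Mylk fell by 0.68 ± 0.20 (SE) and lost its call without wildtype replicate 2 (adjusted p = 0.221) and replicate 3 (adjusted p = 0.0904). Of 10 endothelial genes 0 passed, with 1 higher at an unadjusted p below 0.05.

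**Figure D4:**
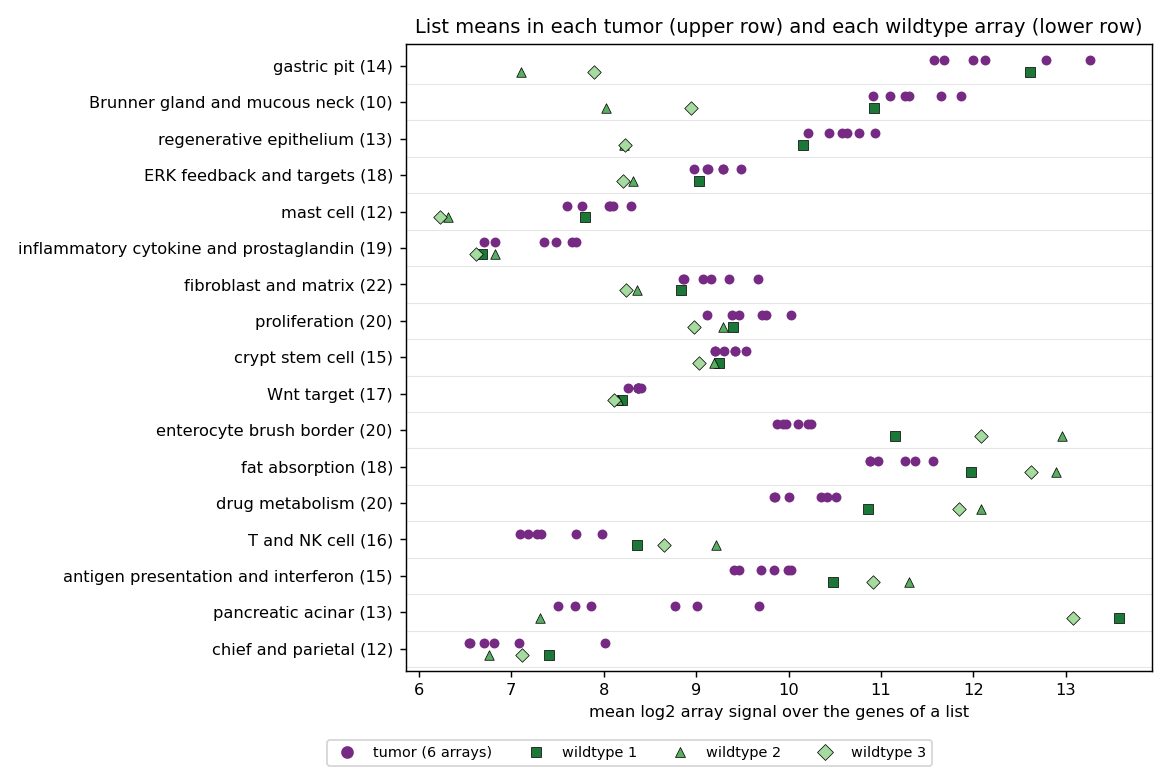
Mean log2 array signal over the genes of each list (number of genes in brackets), with 6 tumors on the upper row and wildtype replicates 1, 2 and 3 on the lower row. In the gastric pit list wildtype replicate 1 (12.6) sits among the tumors (11.6 to 13.3) with replicates 2 and 3 at 7.11 and 7.90, while in the brush border list the tumors (9.87 to 10.2) lie below all 3 wildtype arrays (11.2, 13.0 and 12.1).

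The 8 genes with the largest lead of wildtype replicate 1 over both other wildtype arrays are given as a description. They were Gkn1, Gkn2, Vsig1, Chil4, Retnlb, Psca, Pla2g4c and A2ml1. Psca, a surface protein of stomach epithelium, read 8.46, 12.11 and 13.82 in tumors, against 13.40, 7.36 and 6.93 in wildtype duodenum. Pla2g4c, a phospholipase, read 7.81, 10.99 and 13.42 in tumors, against 13.69, 6.83 and 6.65 in wildtype duodenum. A2ml1, a protease inhibitor, read 5.92, 9.89 and 13.28 in tumors, against 12.40, 5.84 and 5.67 in wildtype duodenum. In these last 3 genes the tumors spanned most of the distance between replicates 2 and 3 and replicate 1. Replicate 1 led both other wildtype arrays by at least 2-fold in 571 genes, and in 439 of these every tumor was also above replicates 2 and 3. Of 700 genes with a tumor mean at least 2-fold above both replicates 2 and 3, replicate 1 reached the lowest tumor in 330 (47.1%). Of 380 genes at least 2-fold below both, replicate 1 reached the highest tumor in 88 (23.2%).

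The tumors differed among themselves in several of the same genes. Among genes that passed, those with the largest SD over the 6 tumors were Atp6v0d2, G6pc, Mmp13, Muc5b, Rnase1 and Tnip3. Mmp13, a collagenase, read 7.66, 10.23 and 11.27 in tumors, against 7.74, 7.95 and 6.96 in wildtype duodenum. Muc5b, a gel-forming mucin, read 7.06, 8.93 and 10.36 in tumors, against 6.68, 6.78 and 6.97 in wildtype duodenum. Tnip3, an inhibitor of NF-kappaB signalling, read 7.54, 9.59 and 10.52 in tumors, against 8.52, 5.89 and 5.90 in wildtype duodenum. In Mmp13 and Tnip3 the lowest tumor was at or below a wildtype array, and in Muc5b all tumors were above all 3. The gluconeogenic phosphatase G6pc read 6.49, 7.25 and 9.20 in tumors, against 9.02, 10.25 and 9.55 in wildtype duodenum, and the proton pump subunit Atp6v0d2 read 8.80, 9.98 and 11.84 in tumors, against 10.33, 5.62 and 5.67 in wildtype duodenum. Of these 6 genes 0 passed in all 3 fits that leave out a wildtype array, and 6 passed within the mice of letter B. The arrays of letter B are among those on which the 6 were chosen, so the latter is no independent support.

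Single tumors stood apart in some gene groups. Muc5ac read 7.27, 8.18, 13.93, 9.40, 12.89 and 7.68 in tumors 1 to 6, so tumors 3 and 5 were near the level of wildtype replicate 1 and tumor 1 near that of replicates 2 and 3. The stomach hormone gene Gast read 13.22 in tumor 3 and 6.94 to 7.69 in the other tumors, against 10.22, 6.99 and 7.38 in wildtype duodenum, and Cblif, the gene of gastric intrinsic factor, likewise read 11.50 in tumor 3. The cytokine Il1b read 6.68 and 7.04 in tumors 3 and 5 and 8.22 to 9.10 in the other 4, and the chemokine Cxcl2 read 5.99 and 5.88 in tumors 3 and 5 and 7.39 to 8.45 in the other 4. Tumors 3 and 5 were thus highest in Muc5ac and lowest in these inflammatory genes. The Paneth cell lysozyme Lyz1 read 8.95 and 9.17 in tumors 4 and 5 and 11.11 to 13.42 in the other 4, against 12.97, 13.75 and 13.27 in wildtype duodenum. Tumors 4 and 6 were the lowest in genes of smooth muscle. Des, the muscle filament desmin, read 8.68 and 9.83 in tumors 4 and 6, against 12.08, 11.42 and 11.06 in wildtype duodenum, and Cnn1, a calponin of smooth muscle, read 7.52 and 9.22 in tumors 4 and 6, against 12.17, 10.82 and 10.22 in wildtype duodenum. These differences among tumors are descriptions of single arrays.

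**Figure D5:**
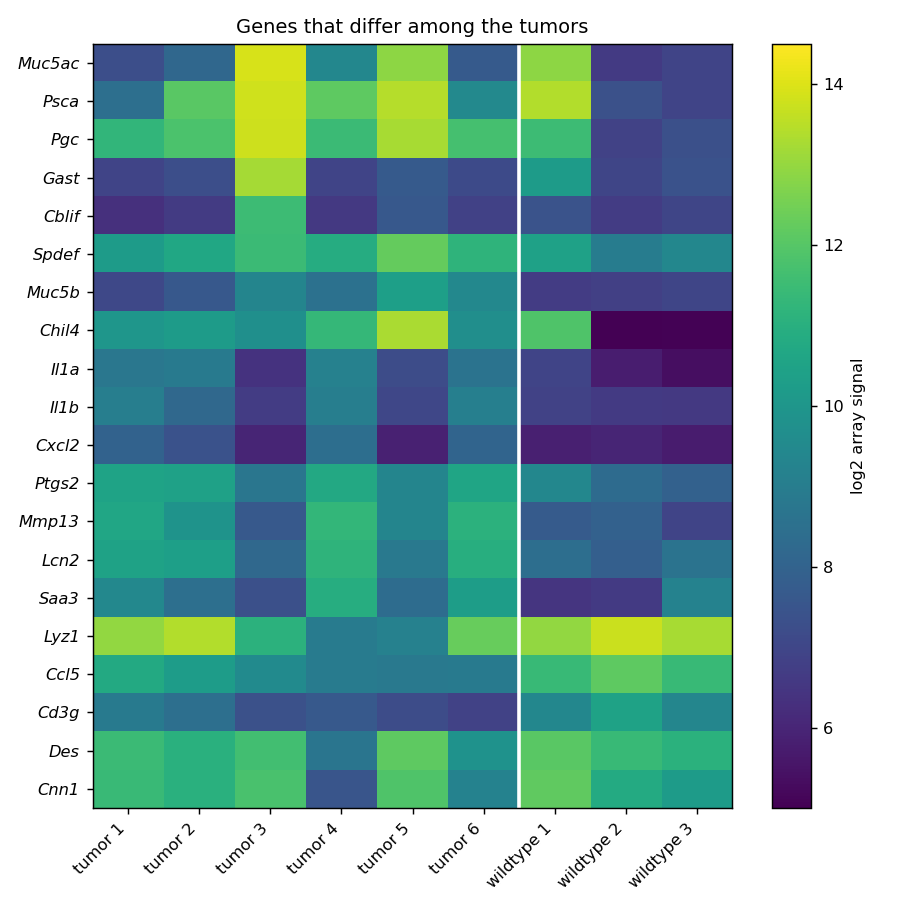
Log2 array signal (colour scale) of 20 genes, chosen after their values were seen, in tumors 1 to 6 and wildtype replicates 1 to 3 (columns). Muc5ac spans 7.27 to 13.93 among tumors, and Gast is high in tumor 3 (13.22) and at 6.94 to 7.69 in the other tumors.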

How the data were processed

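Per the labels' protocols, total RNA was read on Affymetrix Mouse Gene 1.0 ST arrays. The authors deposited log2 signal of 35556 transcript clusters, the unit being inferred from a range of 2.87 to 14.8. Per the submitters' processing notes, the tool was Affymetrix Expression Console 1.1 and the build mm9. How background and arrays were normalized was not given in the sources used here. The medians of the arrays, 7.11 to 7.29, were close, and no further scaling was applied. Values near the top can be compressed, and no detection calls were used.

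Symbols came from the platform's annotation, updated through gene identifiers with RefSeq's GRCm38.p6 table, which was used for names and promoter windows only. A single symbol was given to 21789 clusters, of which 21698 matched by identifier and 91 kept their old symbol. The 1621 clusters with several symbols and the 12146 with none were left out. Where a gene had more than 1 cluster (999 genes), the brightest on average stood for it, and 19938 genes remained.

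Groups were taken from the array titles, and replicates were numbered in accession order. limma 3.58.1 in R 4.3.3 fitted 3 group means to all 14 arrays with mouse as a random block (correlation 0.334). The contrast was tumor minus wildtype, two-sided, its p-values adjusted by Benjamini-Hochberg across genes, with a threshold of 0.05 and a 2-fold change as a second threshold. On simulated data of 19938 genes for this comparison, the fit recovered 41%, 90% and 99% of genes changed by 0.5, 1 and 2 log2 units (100 genes each), with 10 calls among unchanged genes. The simulated noise was independent between genes and equal in all groups. It held no array that departs in many genes together, as wildtype replicate 1 does, so these figures do not carry over to the real arrays. Alternatives were the 9 arrays alone, no mouse block, array weights, quantile normalization, median centring, trended and robust moderation, a filter on dim genes (log2 signal above 6 on at least 3 arrays), the mean of a gene's clusters, the ID letter as a block and within letters, and each array left out.

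The groups, the 34 gene lists, the promoter strings and the rules were chosen with earlier results of these data known. Of the list entries 26 had no gene in the table. The rule for naming genes took Lrig1, the 12 largest changes in each direction among genes without overlap, the 8 in each direction with the widest gap, up to 4 of each list by size of change with those that passed first, the 8 led by wildtype replicate 1 and the 6 with the largest spread among tumors. Outside the lists, the rule passed over predicted genes, small RNAs, defensins, genes of immunoglobulins and T cell receptors, and olfactory and vomeronasal receptors. Other members of the lists, the promoter genes, and the genes that showed differences among tumors were named after their values were seen, and the 10 strings were kept after other short strings had been counted.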

Additional observations from a re-analysis of the deposited data

Results flagged for a closer look

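Of 199 values tested over the 6 tumors, 13 had 1 tumor far from the nearest of the others relative to the range of the group, a criterion that chance meets in about 1 in 20 groups, and 8 of the 13 were in tumor 3. Tumor 3 was high in Cblif, the gene of gastric intrinsic factor, at 11.5 (6.32 to 7.62 in the other tumors), in Retnla, a secreted protein of type 2 responses, at 7.16 (4.74 to 5.58), and in the mean of the chief and parietal cell genes, at 8.02 (6.55 to 7.09). It was low in 3 genes of B and plasma cells, Cd79a at 7.83 (9.07 to 9.54), Jchain at 10.9 (12.2 to 12.7) and Mzb1 at 6.95 (8.41 to 9.19). It was also low in the nuclear receptor gene Nr1i3 at 7.79 (8.51 to 8.81) and in Phlda1, which ERK induces, at 10.1 (10.9 to 11.3).

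Tumor 5 was high in the carbonic anhydrase Car4 at 10.2 (7.65 to 8.43 in the other tumors) and in the peptidase Dpp4 at 9.20 (8.38 to 8.66), both enterocyte genes that fell in tumors. Tumor 4 was high in the endothelial genes Cdh5 at 9.46 (8.56 to 8.84) and Eng at 10.1 (9.22 to 9.46). The mean of the Wnt targets was 8.27 in tumor 1 and 8.37 to 8.40 in the other tumors, a small distance in a narrow group.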

How the results depend on the processing

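In every alternative that keeps mice of both letters, and within letter B, each of the 164 named genes apart from Lrig1 kept its direction where it had passed. Of the 110 that passed, 58 passed in each alternative other than within letter F, and 8 passed there as well. All alternatives reuse arrays on which these genes were called, so passing again is no independent support. The number of raised genes was 1231 with the 9 arrays alone and 4139 with array weights, and that of lowered genes 2844 with array weights. With array weights 769 genes were raised and 528 lowered 2-fold, and within letter B 749 and 544. Within letter F, where wildtype replicate 1 stands alone and is assumed to vary like the other arrays, 8 genes were raised and 49 lowered, 7 and 48 of them 2-fold. There Atp6v0d2 (-1.04), Gkn1 (-0.12), Gkn2 (-0.071) and Phlda1 (-0.17) changed direction, and the cause was not tested. Leaving out 1 array at a time gave 606 to 3102 raised and 334 to 1424 lowered genes, 206 to 800 and 206 to 482 of them 2-fold, with the extremes coming from the wildtype arrays. Without single tumors 1497 to 2274 genes were raised and 700 to 942 lowered. Lrig1 was -0.96 with the 9 arrays alone (adjusted p = 0.0581), -1.01 with the letter as a block (0.0529), -0.75 within letter B (0.233), -1.42 within letter F (0.409) and -1.37 to -0.71 with 1 array left out. It did not pass in the first 4 of these, nor without wildtype replicate 1 (0.0559) or 2 (0.113), and these fits hold fewer arrays or an added term. No paired analysis was possible because the tumor and wildtype arrays came from different mice. The spread of 3 wildtype mice limits every comparison here, and small changes (0.5 log2 units) were mostly missed on simulated data.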
